A study of Mus musculus with 84 samples.

Results

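Calcium enters and moves inside a sensory neuron through a small set of gene families, and 32 of their genes were read here in single airway-traced vagal neurons. The set was named gene by gene: 10 pore-forming α1 subunits of voltage-gated calcium channels, 4 β, 4 α2δ and 8 γ subunits, 3 ryanodine receptors and 3 IP3 receptors. All 32 were found among the 50686 genes counted, and 25 reached 10 CPM (10 counts per 1000000 of a neuron's total) in at least 1 neuron of adequate depth. The neurons came from C57BL/6 mice, lay in the vagal ganglia, and had taken up the lipophilic dye DiI (2%) from the airways. They form 1 labelled group of 84 single cells with no treatment, and no label gives an animal, age or ganglion. A class of neurons is therefore 1 sample here, with no test, and differences are named by size alone.

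An α1 subunit forms the pore and sets the channel type. L-type pores (Cacna1c, Cacna1d, Cacna1f, Cacna1s), the P/Q-type (Cacna1a), N-type (Cacna1b) and R-type pores (Cacna1e) open at strong depolarization, and T-type pores (Cacna1g, Cacna1h, Cacna1i) open near rest. Cytoplasmic β and extracellular α2δ subunits carry the high-voltage pores to the membrane, and the N-type and P/Q-type channels drive transmitter release at sensory nerve endings. Ryanodine receptors and IP3 receptors release calcium from the endoplasmic reticulum, and the first are opened by calcium itself.

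Depth ran from 576966 to 20668832 counts per neuron. The 72 neurons with at least 5000000 counts were used, and the shallowest of them had 6732279, where 10 CPM stands for about 67.3 counts. The number of genes at 10 CPM ran from 841 to 8870 per neuron, and 38 neurons with 5000 or more are called gene-rich and the other 34 low-gene. The 2 neurons nearest that limit had 4870 and 5231 genes. Gene-rich neurons were sorted by 3 marker genes at 10 CPM in turn: 6 had Prdm12, a transcription factor of jugular-type neurons, 12 of the rest had the capsaicin receptor Trpv1, 11 of the remainder had the stretch-gated channel Piezo2, and 9 had none of these. All 10 neuron markers were found in 50% or more of neurons, and their sum had a median of 14708 CPM. The 8 markers of satellite glia and Schwann cells, none of them at 0 throughout, summed to a median of 1870 CPM (11.8 to 56628) and reached 1000 CPM in 52 of 72 neurons. Some of these 8, S100b among them, are also made by sensory neurons. The 9 markers of striated muscle, which carries Cacna1s and Ryr1, had a median sum of 0.834 CPM and a highest sum of 23.9 CPM. Shares carry exact 95% Clopper-Pearson intervals over neurons, which cover counting error only.

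Promoter sequence is shown for 3 genes on which the results turn: the commonest pore per length, Cacna1b, the pore Cacna1e, seen mostly with Trpv1, and Ryr2, seen mostly with Piezo2. The windows are from RefSeq on GRCm38.p6, 250 bases before to 50 after the start, on the minus strand: chr2:24763103-24763402 for Cacna1b, chr1:154725871-154726170 for Cacna1e and chr13:12106896-12107195 for Ryr2. Capitals mark TGNGGT, the core bound by Runx factors, GGGCGG, the GC box, and TATAAA, the TATA box, each searched on both strands.
Cacna1b: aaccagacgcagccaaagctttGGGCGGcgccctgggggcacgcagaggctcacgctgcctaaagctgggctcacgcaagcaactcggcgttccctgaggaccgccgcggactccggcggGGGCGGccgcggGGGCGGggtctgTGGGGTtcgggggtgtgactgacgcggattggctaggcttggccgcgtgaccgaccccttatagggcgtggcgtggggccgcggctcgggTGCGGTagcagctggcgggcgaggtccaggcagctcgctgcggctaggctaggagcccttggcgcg
Cacna1e: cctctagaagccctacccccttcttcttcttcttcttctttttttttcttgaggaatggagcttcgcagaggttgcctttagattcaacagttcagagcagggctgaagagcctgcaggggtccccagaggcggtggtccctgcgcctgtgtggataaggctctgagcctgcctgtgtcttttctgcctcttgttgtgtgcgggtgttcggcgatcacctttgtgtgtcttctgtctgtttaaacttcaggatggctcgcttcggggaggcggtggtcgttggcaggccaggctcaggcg
Ryr2: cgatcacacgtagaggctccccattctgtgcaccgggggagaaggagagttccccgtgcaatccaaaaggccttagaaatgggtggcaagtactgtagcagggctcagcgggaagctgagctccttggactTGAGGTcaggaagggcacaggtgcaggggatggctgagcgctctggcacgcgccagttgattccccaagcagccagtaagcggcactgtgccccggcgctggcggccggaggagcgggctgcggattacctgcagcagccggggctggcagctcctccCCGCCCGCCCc
The Cacna1b window was 72.3% G and C, the Ryr2 window 65.3% and the Cacna1e window 55.3%, against a median of 52.7% over all 32851 windows. Cacna1b held 3 GC boxes and 2 Runx cores, Ryr2 held 2 GC boxes that overlap each other and 1 Runx core, and Cacna1e held none of the 3 motifs. The shares of all windows with a match were 45.8% for TGNGGT, 35.7% for GGGCGG and 13.6% for TATAAA. The E-box CANNTG, which is not capitalized, was present in 72.3% of all windows, in Cacna1b and Ryr2 but not in Cacna1e. The Cacna1e window begins inside the gene's span in GENCODE M21, which has longer transcripts. A window of this kind was held for 24 of the 32 genes. These matches describe letters only.

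Across the 72 neurons, 6 members reached 10 CPM in 50% or more: the β subunits Cacnb3 and Cacnb4, the α2δ subunits Cacna2d1 and Cacna2d3, and the pores Cacna1a and Cacna1b. Over all genes, 5458 of the 16068 that reached 10 CPM at all did so in 50% of neurons. A further 14 members were found in 1 to 10 neurons. Another 7 never reached 10 CPM: Cacna1f, Cacna1s, Cacna1i, Cacna2d4, Cacng1, Cacng6 and Cacng8. A count of 0 in 72 allows up to 4.17% of neurons by the limit of 3 counts, which is used below for shares of 0 and is a little under the exact upper bound, here 4.99%. Cacna1s, the pore of skeletal muscle, and Cacng6 had no count in any of the 72 neurons, Cacna1i peaked at 0.0922 CPM, and Cacng8, the highest of the 7, peaked at 1.71 CPM.

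**Figure D1:**
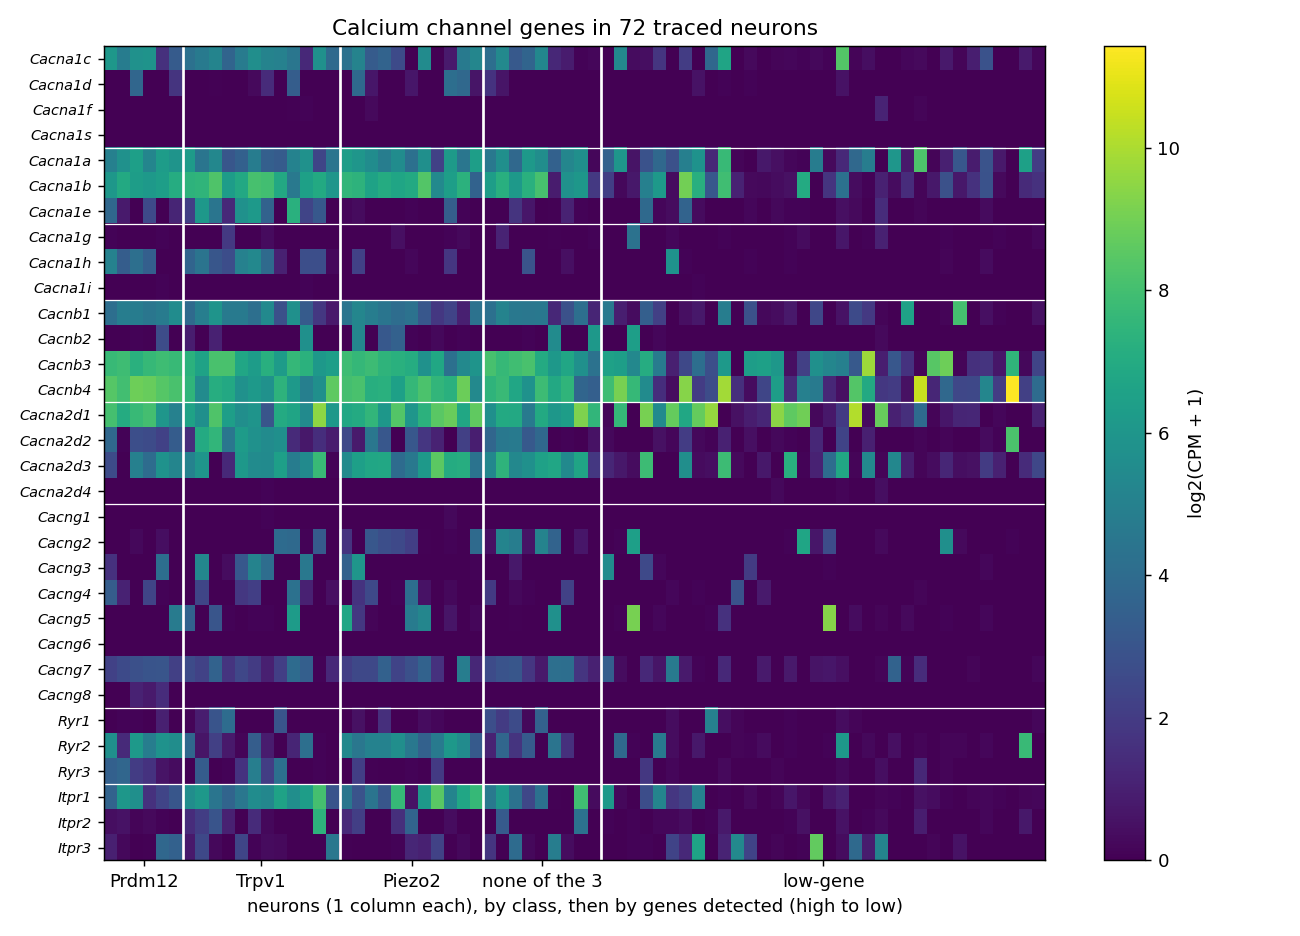
Level of each of the 32 genes (rows, grouped by family) in each of the 72 neurons (columns), coloured by log2(CPM + 1). Bands for Cacna1a, Cacna1b, Cacnb3, Cacnb4, Cacna2d1 and Cacna2d3 run through the 38 gene-rich neurons and break up in the 34 low-gene neurons, where single neurons still reach the highest values of the plot.

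The N-type pore was the leading α1 transcript. Cacna1b (ENSMUSG00000004113; chromosome 2, 24603887 to 24763152, minus strand, GRCm38) was found in 43 of 72 neurons (59.7%, 95% interval 47.5 to 71.1%) and in 36 of 38 gene-rich neurons. Its level there ran from 0.845 to 333.9 CPM (median 110.6 CPM), and the quartiles were 70.7 and 157.1 CPM. Divided by exon length, its median was 11.1 CPM per kb, against 3.19 CPM per kb for Cacna1a and 0.850 CPM per kb for Cacna1c. In 55 neurons at least 1 α1 gene reached 10 CPM, and Cacna1b was the highest per kb in 41 of them. It led in 34 of 37 such gene-rich neurons, in 27 of them by 2-fold or more. In the low-gene neurons the lead was shared, with Cacna1a first in 8 of 18 and Cacna1b in 7.

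Cacna1a (ENSMUSG00000034656; chromosome 8, 84388440 to 84640246, plus strand) encodes the P/Q-type pore. It was found in 44 of 72 neurons (61.1%, 48.9 to 72.4%) and in 32 of 38 gene-rich neurons, from 0.165 to 86.9 CPM (median 36.4 CPM). Over all 72 neurons the N-type and P/Q-type pores thus had close shares, while in gene-rich neurons the level per kb set them apart. Cacna1b had the higher share in gene-rich neurons and Cacna1a in low-gene neurons, at 12 of 34 against 7 of 34. The L-type pore Cacna1c (chromosome 6, 118587240 to 119196418) was found in 29 of 72 neurons (40.3%, 28.9 to 52.5%) and in 25 of 38 gene-rich neurons, where its median was 18.01 CPM. The second L-type pore of neurons, Cacna1d, was far rarer: it reached 10 CPM in 4 gene-rich neurons, at 12.7, 13.5, 13.9 and 16.3 CPM, and 3 of these were in the Piezo2 class.

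T-type and R-type pores were found in few neurons. Cacna1h (chromosome 17, 25374285 to 25433783), the T-type pore of touch and pain neurons in dorsal root ganglia, was found in 8 of 72 neurons (11.1%, 4.92 to 20.7%), between 11.7 and 55.5 CPM. Cacna1g was found in 1 neuron, a low-gene one, at 18.5 CPM. Cacna1e (chromosome 1, 154390731 to 154884501) was found in 9 of 72 neurons (12.5%, 5.88 to 22.4%), between 11.02 and 150.3 CPM. Both of the 2 low-gene neurons with Cacna1e were close to 10 CPM, at 11.5 and 14.2 CPM, and neither had Trpv1 at 10 CPM. In gene-rich neurons several pores were found together: 12 neurons had 2 α1 genes at 10 CPM, 12 had 3, 6 had 4 and 5 had 5, and only 1 had none.

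**Figure D2:**
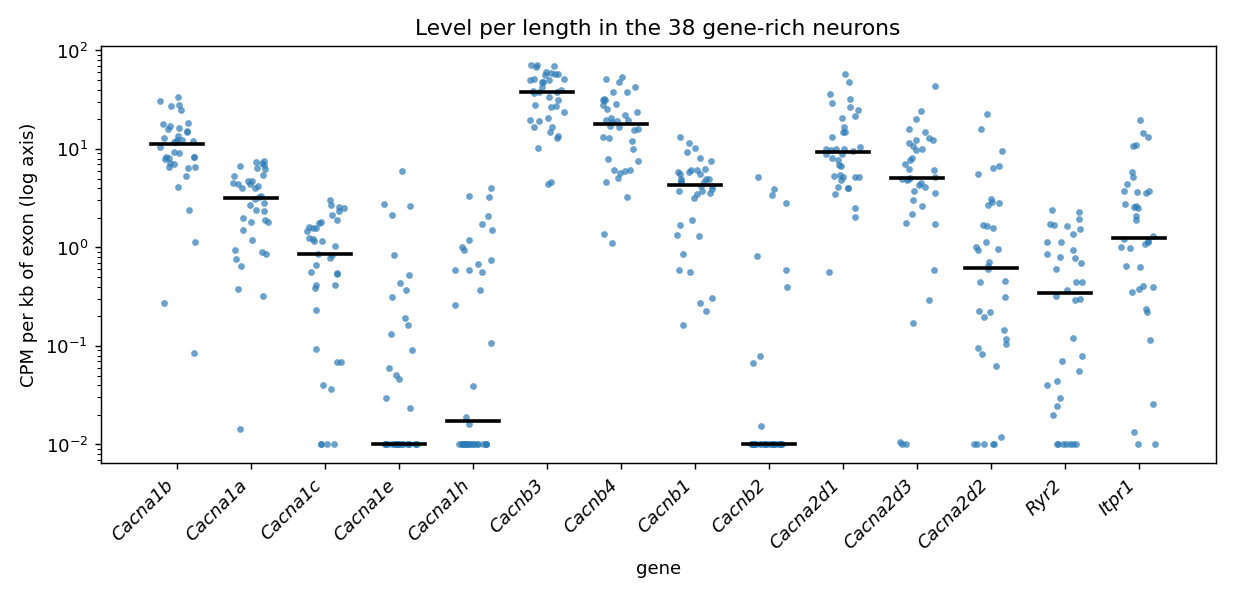
Level of 14 members in the 38 gene-rich neurons, in CPM per kb of exon on a log axis; each point is 1 neuron, the bar is the median, and values below 0.01 are drawn at 0.01. Cacna1b stands above the other pores, with a median of 11.1 CPM per kb against 3.19 for Cacna1a, and Cacnb3, with 37.9, stands above Cacnb4, with 17.9.

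Cacnb3 and Cacnb4 led the β family. Cacnb3 (ENSMUSG00000003352; chromosome 15, 98630840 to 98644529) was found in 55 of 72 neurons (76.4%, 64.9 to 85.6%) and in all 38 gene-rich neurons, where it ran from 17.8 to 286.2 CPM (median 151.9 CPM). Cacnb4 (chromosome 2, 52428320 to 52676831) was found in 53 of 72 neurons (73.6%, 61.9 to 83.3%) and in 37 of 38 gene-rich neurons, from 9.89 to 478.3 CPM (median 160.2 CPM). Per kb Cacnb3 was the highest β gene in 44 of the 63 neurons with any β gene at 10 CPM. By CPM without length the order turned, with Cacnb4 first in 32 neurons and Cacnb3 in 28. Exons of the lncRNA A430018G15Rik on the other strand cover 15.99% of the exon bases of Cacnb4, and with no strand setting given, reads there cannot be told apart. Cacnb1, the β subunit best known from skeletal muscle, was found in 32 of 72 neurons, 27 of them gene-rich, at a gene-rich median of 19.7 CPM. Cacnb2, the main cardiac β subunit, was found in 6 neurons, between 10.8 and 83.1 CPM. Most gene-rich neurons, 27 of 38, had 3 β genes at 10 CPM.

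Among the α2δ subunits, which bind gabapentin in the case of Cacna2d1 and Cacna2d2, Cacna2d1 led. Cacna2d1 (chromosome 5, 15934691 to 16374511) was found in 50 of 72 neurons (69.4%, 57.5 to 79.8%) and in 37 of 38 gene-rich neurons, from 6.95 to 714.5 CPM (median 115.7 CPM). Cacna2d3 (chromosome 14, 28904943 to 29721864) was found in 40 of 72 neurons (55.6%, 43.4 to 67.3%) and in 32 of 38 gene-rich neurons, from 0 to 378.5 CPM (median 44.03 CPM). Per kb Cacna2d1 was the highest of the family in 36 of 57 neurons and Cacna2d3 in 16. Cacna2d2 was found in 14 of 72 neurons, 13 of them gene-rich, and led in 5.

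The γ family had no leading member. Its genes are mostly known as regulators of AMPA-type glutamate receptors, Cacng2 (stargazin) being the best studied. At least 1 γ gene reached 10 CPM in 29 of 72 neurons, and the highest per kb was Cacng5 in 9 of these, Cacng2 in 7, Cacng3 in 7 and Cacng7 in 6. Cacng5 reached 539.7 and 644.5 CPM in 2 low-gene neurons, against a highest value of 107.3 CPM in gene-rich neurons. Cacng7 was low but widespread: 37 of 38 gene-rich neurons had at least 1 count, while 8 reached 10 CPM, and the median was 4.47 CPM. Cacng4 was found in 2 neurons, at 16.5 and 18.4 CPM.

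Over all 72 neurons, each family of release channels had 1 leading member. Ryr2 (ENSMUSG00000021313; chromosome 13, 11553102 to 12106945, minus strand), the ryanodine receptor of heart and brain, was found in 23 of 72 neurons (31.9%, 21.4 to 43.99%) and led its family per kb in 23 of the 29 neurons with any ryanodine receptor gene at 10 CPM. Ryr1, the skeletal muscle form, was found in 3 neurons at 10.6, 15.3 and 31.2 CPM. Ryr3 was found in 4 neurons at 10.4, 12.8, 17.8 and 28.99 CPM. All were gene-rich neurons with Trpv1 at 10 CPM (4 of 14), against 0 of 24 gene-rich neurons without it, which allows up to 12.5%. All 4 were in block 3 of the neuron numbers and 2 of them were Prdm12 neurons. With fewer than 5 neurons Ryr3 entered no class comparison, so no share over all genes stands beside this. At least 1 count of Ryr3 was present in 6 of 6 Prdm12 neurons and 11 of the 32 other gene-rich neurons. Itpr1 (chromosome 6, 108213096 to 108551109), the main IP3 receptor of neurons, was found in 30 of 72 neurons (41.7%, 30.2 to 53.9%), 27 of them gene-rich, and led in 28 of 39. Its lead held in 26 of 32 gene-rich neurons, while in low-gene neurons Itpr3 led in 5 of 7 and Itpr1 in 2. Itpr3 was found in 10 neurons, 5 of them low-gene, and Itpr2 in 3, at 11.4, 18.4 and 166.0 CPM. In gene-rich neurons Ryr2 and Itpr1 were found together in 12, Itpr1 alone in 15, Ryr2 alone in 7 and neither in 4.

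Trpv1 neurons, a class set by RNA of the capsaicin receptor alone, were set against the 20 gene-rich neurons with neither Prdm12 nor Trpv1. Of 18 members with a value in enough neurons to be compared, 4 passed a difference of 40 percentage points: Cacna1e, Cacna1h and Cacna1c were higher in Trpv1 neurons and Ryr2 was lower. Over all 10509 genes compared, 3.14% passed in either direction, 1.58% higher and 1.56% lower. The median difference was 0.833 points for the members and 0 points for all genes. With no animal named, this background describes these neurons and is no test. Cacna1e and Cacna1h, found in 0 of the 20 others, entered through Trpv1 neurons alone. For any such gene the 5 neurons needed to enter are already 41.7% of the 12 Trpv1 neurons. Passing 40 points was thus fixed on entry for these 2 genes.

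Cacna1e was found in 6 of 12 Trpv1 neurons (50%, 21.1 to 78.9%), against 0 of 20 others, which allows up to 15%. It ran from 0 to 150.3 CPM (median 9.46 CPM) in Trpv1 neurons, and from 0 to 9.34 CPM (median 0.0302 CPM) in the others. The 6 positive Trpv1 neurons had 11.02, 20.9, 53.9, 66.7, 69.3 and 150.3 CPM, so 5 of them lay above 20 CPM and the groups overlapped only below 10 CPM. The difference of class medians was 3.33 on the log2(CPM + 1) scale. By the numbers in the neuron names, which fall into 3 blocks that the labels do not explain, Cacna1e was found in 2 of 3, 0 of 1 and 4 of 8 Trpv1 neurons, against 0 of 6, 0 of 3 and 0 of 11 others. The call was lost at 1 count or more, where 10 of 12 Trpv1 neurons and 10 of 20 others had the gene (33.3 points), at 50 CPM (33.3 points), over all kept neurons (31.1 points) and with gene-rich set at 4000 genes (38.5 points). Without block 1, at 4 of 9 Trpv1 neurons and 0 of 14 others, it was lost too. The same held without block 3, at 2 of 4 and 0 of 9. In both cases Cacna1e was found in fewer than the 5 neurons needed to enter.

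Cacna1h was found in 5 of 12 Trpv1 neurons (41.7%, 15.2 to 72.3%), against 0 of 20 others. It ran from 0 to 39.1 CPM (median 6.55 CPM) in Trpv1 neurons, and from 0 to 6.67 CPM (median 0 CPM) in the others. The positive neurons had 11.7, 14.6, 20.2, 31.7 and 39.1 CPM, and 4 of these 5 also had Cacna1e. At 1 count or more Cacna1h was present in 11 of 12 Trpv1 neurons, against 5 of 20 others, while at 50 CPM it was found in 0 of 12 and 0 of 20. By block it was found in 0 of 3, 1 of 1 and 4 of 8 Trpv1 neurons, against 0 of 6, 0 of 3 and 0 of 11 others. An exon of Tpsg1, a mast cell tryptase gene on the other strand, covers 1.62% of its exon bases.

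Cacna1c was found in 11 of 12 Trpv1 neurons (91.7%, 61.5 to 99.8%), against 10 of 20 others (50%, 27.2 to 72.8%). It ran from 1.46 to 52.8 CPM (median 25.1 CPM) in Trpv1 neurons, and from 0 to 45.3 CPM (median 10.1 CPM) in the others. The ranges overlapped over most of their length, and the difference of medians was 1.25 on the log2(CPM + 1) scale, short of the 2 log2 units used as a rule for levels. Without block 3 the shares were 3 of 4 Trpv1 neurons and 6 of 9 others, a difference of 8.33 points. At 1 count or more they were 12 of 12 and 18 of 20 (10 points).

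By the rule of 2 log2 units of the class medians, 4 of 18 members passed, against 5.69% of all genes compared: Cacna1e, Cacna1h and Cacna2d2 were higher in Trpv1 neurons and Ryr2 was lower. Cacna2d2 ran from 0.665 to 181.1 CPM (median 33.05 CPM) in Trpv1 neurons, and from 0 to 24.9 CPM (median 3.00 CPM) in the others. The highest 6 Trpv1 neurons lay above all 20 others, and the difference of medians was 3.02. In shares, at 7 of 12 Trpv1 neurons and 5 of 20 others (33.3 points), it stood just outside the 40 points, with Cacna1c and Cacna1h just inside at 41.7 points each. By block Cacna2d2 was found in 1 of 3, 0 of 1 and 6 of 8 Trpv1 neurons, against 3 of 6, 1 of 3 and 1 of 11 others. Its share was thus higher in Trpv1 neurons in block 3 alone and lower in the other blocks.

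The 8 glia markers summed to a median of 1109 CPM (68.6 to 2733) in Trpv1 neurons and 1351 CPM (294.97 to 10568) in the others, while 5 of them (Fabp7, Apoe, Sox10, Mbp and Kcnj10) summed to medians of 737.6 and 504.7 CPM; their part in the results was not tested. Leaving out neurons in which these 5 summed to 1000 CPM or more, a choice made after seeing the data, left 7 Trpv1 neurons and 11 others. Cacna1e was then found in 3 of 7 Trpv1 neurons and 0 of 11 others (42.9 points), Cacna1h in 2 of 7 and 0 of 11 (28.6 points), and Cacna1c in 6 of 7 and 7 of 11 (22.1 points). With the limit at 500 CPM Cacna1e was found in 2 of 6 Trpv1 neurons and 0 of 10 others (33.3 points). The calls for all 3 genes were lost at both limits, Cacna1e at 1000 CPM because it was found in fewer than the 5 neurons needed to enter. With TMM scaling, a factor from edgeR, the differences were 33.3 points for Cacna1e, 16.7 for Cacna1h, 28.3 for Cacna1c and -35.0 for Ryr2. The calls for these 4 genes did not hold there, although each kept its direction.

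**Figure D3:**
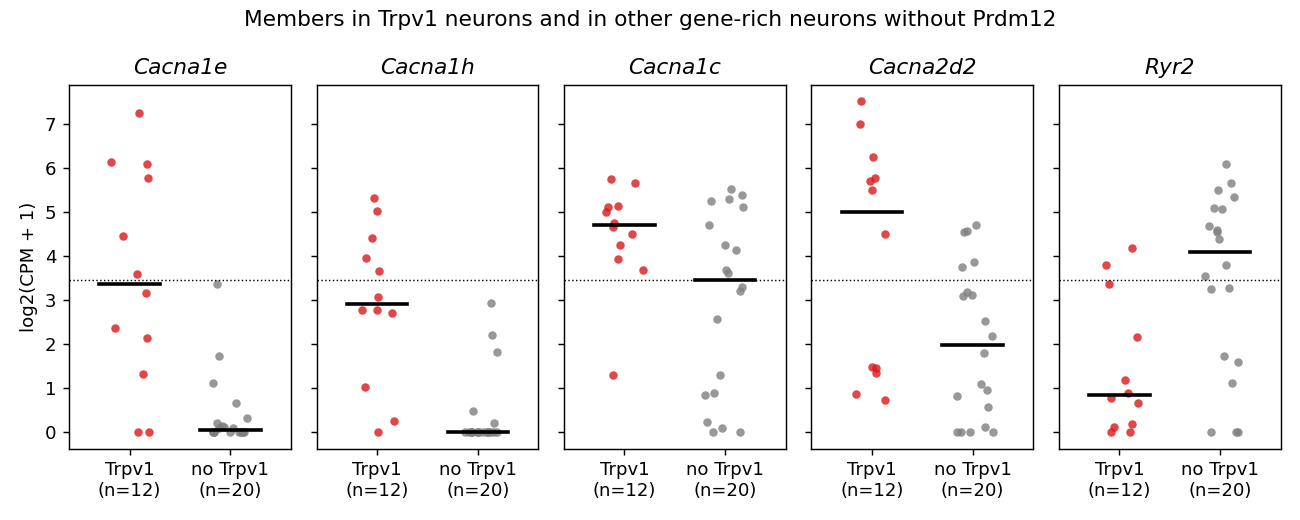
Level of 5 members, as log2(CPM + 1), in the 12 Trpv1 neurons (left, red) and the 20 other gene-rich neurons without Prdm12 (right, grey); each point is 1 neuron, the bar is the median and the dotted line is 10 CPM. Cacna1e and Cacna1h pass the line in 6 and 5 Trpv1 neurons and in 0 of the others, and Ryr2 passes it in 2 Trpv1 neurons and 12 others.

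Over all gene-rich neurons, Prdm12 neurons included, Cacna1e was found in 7 of 14 with Trpv1 and 0 of 24 without it. Cacna1h was found in 6 of 14 with Trpv1 and 1 of 24 without it, and Cacna1c in 13 of 14 and 12 of 24. Of the 7 gene-rich neurons with Cacna1h, 5 also had Cacna1e (71.4%, 29.04 to 96.3%), against 2 of the 31 without Cacna1h (6.45%, 0.791 to 21.4%). All 5 were in block 3, and 4 of them were in the Trpv1 class, where both genes were already named as higher. The 2 others with Cacna1h were in blocks 1 and 2. No share over other gene pairs was computed, so this overlap is a description only. The 1 Prdm12 neuron that had Cacna1e, at 13.2 CPM, also had Cacna1h, at 32.7 CPM, and Trpv1, at 18.4 CPM.

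Ryr2 was found mostly in neurons with Piezo2, the channel that senses stretch. Among the 20 gene-rich neurons with neither Prdm12 nor Trpv1, the 11 with Piezo2 were set against the 9 without it. Of 13 members compared, 1 passed 40 points, against 2.63% of 9543 genes, and that 1 was Ryr2. It was found in 10 of 11 Piezo2 neurons (90.9%, 58.7 to 99.8%), against 2 of 9 others (22.2%, 2.81 to 60.01%). It ran from 8.48 to 66.6 CPM (median 32.6 CPM) in Piezo2 neurons, and from 0 to 19.8 CPM (median 2.01 CPM) in the others. The lowest 2 Piezo2 neurons, at 8.48 and 10.7 CPM, lay within the range of the others, and 2 of the 9 others passed 10 CPM, at 12.8 and 19.8 CPM. The difference of class medians was 3.48 on the log2(CPM + 1) scale, and Ryr2 was also the 1 member past 2 log2 units, against 4.90% of genes.

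In the classes not used in that comparison numbers were small. All 6 Prdm12 neurons had Piezo2 and 5 had Ryr2, so that class holds no neuron without Piezo2 to compare. In the Trpv1 class, Ryr2 was found in 2 of the 3 neurons with Piezo2 and in 0 of the 9 without it, which allows up to 33.3%. Over all 38 gene-rich neurons Ryr2 was found in 17 of 20 with Piezo2 (85%, 62.1 to 96.8%) and 2 of 18 without it (11.1%, 1.38 to 34.7%). In low-gene neurons the shares were 3 of 14 with Piezo2 (4.66 to 50.8%) and 1 of 20 without it (0.127 to 24.9%), with overlapping intervals. By block, Ryr2 was found in 3 of 3, 2 of 2 and 5 of 6 neurons of the Piezo2 class, against 2 of 3, 0 of 1 and 0 of 5 with none of the markers.

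Glia markers differed between these groups. The 8 markers summed to a median of 1069 CPM (352.6 to 10568) in Piezo2 neurons and 1635 CPM (294.97 to 4681) in the others, with Fabp7 at medians of 9.42 and 437.0 CPM and Apoe at 18.8 and 643.6 CPM. The 5-marker sum had medians of 67.9 and 1184 CPM, while S100b went the other way, at 720.4 and 547.7 CPM. After leaving out neurons with 1000 CPM or more of the 5 glia markers, Ryr2 was found in 7 of 8 Piezo2 neurons and 1 of 3 others, a difference of 54.2 points. At 1 count or more it was found in 11 of 11 and 6 of 9, and at 50 CPM in 1 of 11 and 0 of 9, so the 40 points were passed at 10 CPM and at neither of these limits.

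The lower share of Ryr2 in the Trpv1 class, at 2 of 12 neurons (16.7%, 2.09 to 48.4%) against 12 of 20 others (60%, 36.1 to 80.9%), was measured partly in the same neurons. Piezo2 was found in 3 of the 12 Trpv1 neurons and 11 of the 20 others, and its part in the result was not tested. Ryr2 ran from 0 to 17.2 CPM (median 0.780 CPM) in Trpv1 neurons, and from 0 to 66.6 CPM (median 16.3 CPM) in the others. By block it was found in 1 of 3, 1 of 1 and 0 of 8 Trpv1 neurons, against 5 of 6, 2 of 3 and 5 of 11 others. Without neurons of 1000 CPM or more of the 5 glia markers it was found in 1 of 7 Trpv1 neurons and 8 of 11 others. The call for Ryr2 was lost without block 1 (-38.9 points), without block 3 (-27.8 points) and with gene-rich set at 4000 genes (-34.6 points). The same held over all kept neurons (-19.5 points), at 1 count or more (-1.67 points) and at 50 CPM (-5 points).

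**Figure D4:**
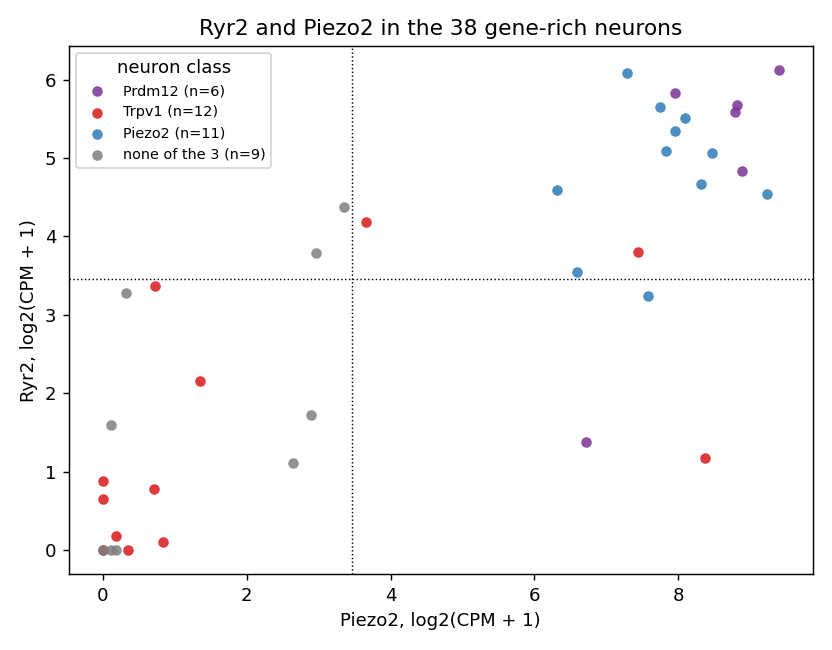
Ryr2 against Piezo2 in the 38 gene-rich neurons, both as log2(CPM + 1), with 1 point per neuron coloured by class and dotted lines at 10 CPM. Of the 20 neurons to the right of the vertical line, 17 lie above the horizontal line, and of the 18 to its left, 2 do.

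Between Prdm12 neurons, of jugular type, and other gene-rich neurons, Ryr2 and Cacna1h passed the rule for levels, though not in every setting. In shares, 0 of 19 members passed 40 points between the 6 Prdm12 neurons and the 32 others, against 6.45% of 10821 genes. Ryr2 stood just outside, in 5 of 6 Prdm12 neurons (83.3%, 35.9 to 99.6%) and 14 of 32 others (43.8%, 26.4 to 62.3%), a difference of 39.6 points. Its level ran from 1.59 to 68.7 CPM (median 48.5 CPM) in Prdm12 neurons, and from 0 to 66.6 CPM (median 8.58 CPM) in the others. Piezo2 was found in all 6 Prdm12 neurons and in 14 of the 32 others, and its part in the result was not tested. Among the others with Piezo2, Ryr2 was found in 10 of 11 neurons of the Piezo2 class and 2 of 3 of the Trpv1 class. By the rule for levels 2 of 19 members passed, both higher in Prdm12 neurons, while 4.04% of genes passed in that direction. These were Ryr2, by 2.37, and Cacna1h, by 3.30 on the log2(CPM + 1) scale. Cacna1h ran from 0 to 32.7 CPM (median 9.63 CPM) in Prdm12 neurons, and from 0 to 39.1 CPM (median 0.0781 CPM) in the others, and with a pseudocount of 10 neither gene passed. The call for Cacna1h was also lost with TMM, without block 1 and without glia-rich neurons at 1000 or 500 CPM, and without block 3 neither gene passed.

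The summed β genes lay higher in the Prdm12 neurons than in most others. Their sum ran from 92.3 to 103.4 CPM per kb (median 95.03) in Prdm12 neurons. In the other classes the medians were 49.9 CPM per kb in Trpv1 neurons, 59.8 in Piezo2 neurons and 61.3 in neurons with none of the markers, and the highest single sums were 99.7, 92.2 and 91.6 CPM per kb. No single β gene passed either rule between Prdm12 neurons and others, and Cacnb4 had the largest difference of medians, 1.24 on the log2(CPM + 1) scale. Family sums were held to no rule, so no share over all genes stands beside them. The α1 sums had medians of 17.7 CPM per kb in Prdm12, 17.8 in Trpv1 and 15.9 in Piezo2 neurons and 11.05 in neurons with none of the markers. The summed glia markers had a median of 1925 CPM (1439 to 3848) over the Prdm12 neurons, against 1301 CPM (68.6 to 10568) over the other 32, with S100b at 1516 and 467.9 CPM. The 5-marker sum went the other way, with medians of 360.9 and 525.3 CPM, as did Fabp7 (57.8 and 164.4 CPM) and Apoe (156.1 and 311.7 CPM). The rest of the 5 had higher medians in Prdm12 neurons: Mbp (107.0 and 30.2 CPM), Sox10 (1.22 and 0.255 CPM) and Kcnj10 (2.56 and 0.145 CPM). So did Cadm2 (38.2 and 0.303 CPM) and Ednrb (36.9 and 25.8 CPM). The part of these markers in the results was not tested.

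Low-gene neurons had fewer of the common channel genes, as they had of genes at large. These neurons were set by having under 5000 genes at 10 CPM, so lower shares of genes at large follow from the sorting itself. Of 19 members compared, 9 were lower by 40 points or more in low-gene than in gene-rich neurons, while 53.8% of 11351 genes were. The 9 were Cacna1a, Cacna1b, Cacna1c, Cacnb1, Cacnb3, Cacnb4, Cacna2d1, Cacna2d3 and Itpr1. Cacna1b was found in 7 of 34 low-gene neurons and 36 of 38 gene-rich neurons, and Cacnb3 in 17 of 34 and 38 of 38. Itpr3 was found in 5 of 34 low-gene and 5 of 38 gene-rich neurons. In the neurons where a gene reached 10 CPM, its level showed no one direction. Of the 9 genes, the median over such neurons was higher in low-gene neurons for 5, among them Cacna2d1 (423.1 CPM in 13 low-gene and 119.8 CPM in 37 gene-rich neurons), and lower for 4, among them Cacnb3 (82.2 and 151.9 CPM). The single highest value of Cacnb4 was 2753 CPM in low-gene and 478.3 CPM in gene-rich neurons. Totals had medians of 11036100 counts in low-gene and 14290200 in gene-rich neurons, and the 8 glia markers summed to medians of 2408 and 1433 CPM; their part in the result was not tested.

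Genes that handle calcium beside these channels showed wide coverage for a few. Of 11 pumps and exchangers, 2 were found in 50% or more of the 72 neurons: Atp2b1, a plasma membrane pump, in 62, and Atp2a2, the pump that refills the endoplasmic reticulum, in 58. Of 5 store-operated genes 1 was, Stim2, a sensor of calcium in the endoplasmic reticulum, in 36, with Stim1 in 34. Of 5 mitochondrial uniporter genes 4 were, led by Smdt1 in 71 and Micu3 in 63. Of 14 channel regulators 5 were, and Calm2, a calmodulin gene, and Fkbp1a, a ryanodine receptor partner, were found in 72 of 72.

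Of these 35 genes, 21 could be compared between Trpv1 neurons and others, 21 between Piezo2 neurons and others and 22 between Prdm12 neurons and others. The numbers past 40 points were 1, 1 and 3, all higher, beside 3.14%, 2.63% and 6.45% of all genes in either direction. Atp2b4, a plasma membrane pump, was found in 10 of 12 Trpv1 neurons, at a median of 105.7 CPM, and in 8 of 20 others, at 1.27 CPM. Cachd1, an α2δ-like protein, was found in 9 of 11 Piezo2 neurons, at a median of 26.5 CPM, and in 2 of 9 others, at 6.65 CPM. In Prdm12 neurons Cabp1, a calmodulin-like channel regulator, was found in 6 of 6 and in 9 of 32 others, Atp2b2, a plasma membrane pump, in 4 of 6 and 1 of 32, and Orai2, a store-operated pore, in 4 of 6 and 8 of 32. In low-gene neurons 8 of 25 compared were lower, beside 53.8% of all genes: Atp2a2, Stim1, Stim2, Orai1, Mcub, Mcu, Micu2 and Stac.

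Levels of the members were also set against each other. Over the 38 gene-rich neurons, the 45 pairs among the 10 members found in 50% or more had a median Spearman rho of 0.105, from -0.355 to 0.63. Between a member and the other 7666 genes found as widely, the median was 0.0407 and the central 95% ran from -0.401 to 0.5. The highest pair was the β subunits Cacnb1 and Cacnb3, and the lowest was Cacnb3 with Cacna2d3. These correlations describe 38 neurons that share library type and differ in depth and number of genes.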

How the data were processed

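The authors deposited raw read counts for 50686 mouse genes in 84 single neurons, assigned to genes with featureCounts per the submitters' processing notes. No aligner, genome build, annotation or strand setting is given in the sources used here. Messenger RNA was amplified from each neuron and read at 76 bases, per the labels' protocols, and no molecular identifiers are mentioned, so copies of 1 transcript can count more than once.

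CPM is counts per 1000000 of a neuron's total. Neurons under 5000000 counts (12 of 84) were left out, and no 2 neurons had identical counts. Symbols, exon lengths (union of exons) and coordinates are from GENCODE M21 (GRCm38), which need not be the authors' annotation, and 50376 genes matched. A gene was found at 10 CPM or more. Genes entered a comparison when found in 5 or more of its neurons, and passed at 40 percentage points of share or 2 log2 units of the class medians of log2(CPM + 1). No label names an animal, so neurons are not replicates and no p-value was computed. All members were accounted for, and the genes named with full values were those in 50% of neurons, family leaders and those past a rule. In the other lists these were the genes with the highest shares and those past 40 points. The members, lists, classes and rules were chosen with earlier results of these data known. A few planned list and marker genes are not reported here, and sums and counts leave them out. The comparison steps were tested on simulated data with planted decreases only, which does not cover the increases called here. Alternatives covered the detection limit, TMM factors (edgeR 4.0.16 in R 4.3.3; no edgeR test was run), thinning to 5000000 counts, depth and gene limits, size rules, lengths and leaving out each block of neuron numbers (parted by gaps over 30). Python 3.11.15, numpy 2.4.6, pandas 2.3.3, scipy 1.17.1 and matplotlib 3.10.9 were used with seed 1.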

Additional observations from a re-analysis of the deposited data

Results flagged for a closer look

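Among 18 groups of members and classes of 4 to 10 neurons examined, 4 had a neuron that stood apart from the rest on the log2 scale; chance flags about 1 in 20 groups, and these groups share neurons, so the flags are not independent. In the 6 Prdm12 neurons, Cacnb3 was lowest in AM011, at 150.9 CPM, where the next value was 202.2 CPM. In the same class Ryr2 was 1.594 CPM in AM296, where the next value was 27.41 CPM. AM296 also had the highest Trpv1 level of the 6, at 226.5 CPM, and the lowest Piezo2 level, at 104.3 CPM. In the 9 neurons with none of the markers, AM219 had the lowest Cacna1a, at 0.1649 CPM with the next at 10.68 CPM, and the lowest Cacna2d3, at 2.556 CPM with the next at 37.61 CPM. AM219 had 5231 genes at 10 CPM, the fewest of the gene-rich neurons.

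The 12 neurons under 5000000 counts entered no comparison. In them 12 members reached 10 CPM in at least 1 neuron, led by Cacnb4 in 6 and Cacna1a in 4, and 1 neuron had Ryr2 at 352.2 CPM.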

How the results depend on the processing

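No paired analysis was possible because the labels give 1 group and the neuron numbers pair nothing. Ryr2 was past 40 points in Piezo2 neurons in 16 of 18 alternatives; Cacng5 took its place at 1 count, none passed at 50 CPM, and 3 passed at 30 points. None of the 5 named share differences (Cacna1c, Cacna1e, Cacna1h and Ryr2 in Trpv1 neurons, Ryr2 in Piezo2 neurons) changed sign; Cacna1h was at 0 of 12 and 0 of 20 at 50 CPM. Trpv1 neurons had 4 members past 40 points in the main analysis. It was 3 without glia-rich neurons at either limit (Ryr2 and Cacna1a, with Cacna2d2 at 1000 CPM or Cacnb1 at 500 CPM), 2 at 1 count, and 1 each at 50 CPM, with TMM, without block 3, over all kept neurons, with gene-rich set at 4000 genes, and at 50 points. Prdm12 neurons had 0 past 40 points; it became 1 at 1 count, with TMM, without block 1, 2 or 3, and at 4000 genes, 2 at 30 points, 3 over all kept neurons, and 3 or 4 without glia-rich neurons (1000 or 500 CPM). By level they had 2; it became 1 without block 1 or block 3, 7 over all kept neurons and 0 with a pseudocount of 10. Low-gene neurons had 9 lower; it became 1 at 1 count and 4 at 50 CPM. Members in 50% of neurons, 6, became 14 at 1 count. Cacna1b led in 41 of 55 neurons, in 17 of 23 without block 3, in 26 of 31 and 21 of 26 without glia-rich neurons (1000 and 500 CPM), and in 36 of 55 by longest transcript. The causes were not tested. Classes of 6 to 12 neurons limit all shares, and 10 CPM stands for 67.3 to 206.7 counts. The limits on Trpv1 and Piezo2 and both glia alternatives were chosen after seeing the data.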
